A study of Mus musculus with 16 samples.

Results

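What the class IIa histone deacetylase inhibitor TMP195 adds when the MYC inhibitor MYCi975 is already present was read from 8 of the 16 RNA-seq libraries of the series. The 4 libraries labelled Combo came from mice given both compounds, and the 4 labelled MYCi975 came from mice given that compound without TMP195. All 8 are total RNA of tumour cells enriched from LLC1 tumours, a Lewis lung carcinoma line of the mouse. Treatment lasted 16 days at 50 mg/kg for either compound alone; the labels leave the doses inside the combination unstated. The remaining 8 libraries, 4 of DMSO vehicle and 4 of TMP195 alone, carry no MYCi975. They allow the effect of TMP195 without MYC inhibition to be set beside its effect on top of it, in libraries whose values do not enter the first difference. All 16 libraries share 1 estimate of each gene's spread, so the p-values of these comparisons are not independent. Of 24334 genes in the deposited table, 15715 exceeded its minimum by 1 or more in 4 or more of the 16 libraries, and these were compared.

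MYC pairs with MAX on E-box DNA and drives genes for ribosome assembly, nucleotide synthesis and cell growth. MYCi975 is a small molecule that binds MYC, disturbs its pairing with MAX and promotes loss of the protein. The class IIa enzymes, encoded by Hdac4, Hdac5, Hdac7 and Hdac9, have little deacetylase activity of their own and bridge MEF2 transcription factors to the HDAC3 and NCOR corepressor complexes. TMP195 occupies their catalytic pocket, and in tumours it is known best for changing macrophages. MYC in tumours is also known to restrain interferon signalling and antigen presentation.

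Values are variance-stabilised, on a scale close to log2, with 4.84 as the lowest value in the table. Differences are Combo minus MYCi975 on that scale, which understates fold changes of weakly expressed genes, and levels of different genes are not compared. The number of reads per library is unknown. Whether a group's libraries are separate mice is not stated, so each p-value reflects library-to-library spread only, some of which may be technical.

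The 8 libraries ranked the genes alike. Between 1960 and 2371 genes stood at the lowest value in the Combo libraries and between 1985 and 2696 in the MYCi975 libraries, and the rank correlation of a pair of libraries was 0.971 to 0.989 (median 0.982 within groups and 0.982 between them). The mesenchymal gene Vim lay at 16.7 to 17.4 and the keratin genes Krt8 and Krt18 at 10.4 to 11.5, whereas the epithelial genes Epcam and Cdh1 stood at the lowest value in 4 and 2 of the 8 libraries. Col3a1 (16.4 to 17.2) and Pdgfra (12.4 to 13.2), markers of fibroblasts that a mesenchymal tumour line can also express, were well above the lowest value in all 8. The leukocyte gene Ptprc was detected in all 8, between 5.81 and 8.04, so the enriched cells carried some leukocyte RNA. MYCi975 replicate 3 stood apart in several gene lists: it held the highest neutrophil list mean (8.16, against 6.18 to 7.08 in the other 7) and the lowest fibroblast list mean (11.1, against 11.7 to 12.3). When each of the 8 libraries was left out in turn, the median difference of 27 of 53 gene lists changed sign at least once, and the one of these farthest from 0 with all 8 libraries stood 0.21 from it. In bulk RNA, fewer cells of a type and less RNA per cell cannot be told apart.

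No single gene was called as different between the combination and MYCi975 alone once all genes were considered. By limma with Benjamini-Hochberg adjustment, 0 of 15715 genes (0%) had an adjusted p under 0.05, and the smallest adjusted p was 1.0. Before adjustment, 365 genes passed p under 0.05 (2.32%), with 180 higher in Combo (1.15%) and 185 lower (1.18%). That is less than the share of 0.05 that the threshold alone gives where no gene differs. With the values of each library centred on their median the same threshold gave 237 higher and 129 lower, so the split between directions moved with the scaling. The values of the 4 Combo libraries did not overlap those of the 4 MYCi975 libraries for 268 genes (1.71%), 140 of them higher in Combo (0.891%) and 128 lower (0.815%). Of the ways to regroup these libraries 4 against 4, 2.86% separate a gene's values fully, so this share too was below that of regrouping alone. The median absolute difference was 0.10, and a typical gene's 95% interval reached 0.33 to either side of its difference. The middle 95% of all differences ran from -0.34 to 0.36, and 29 genes differed by more than 1.

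**Figure D1:**
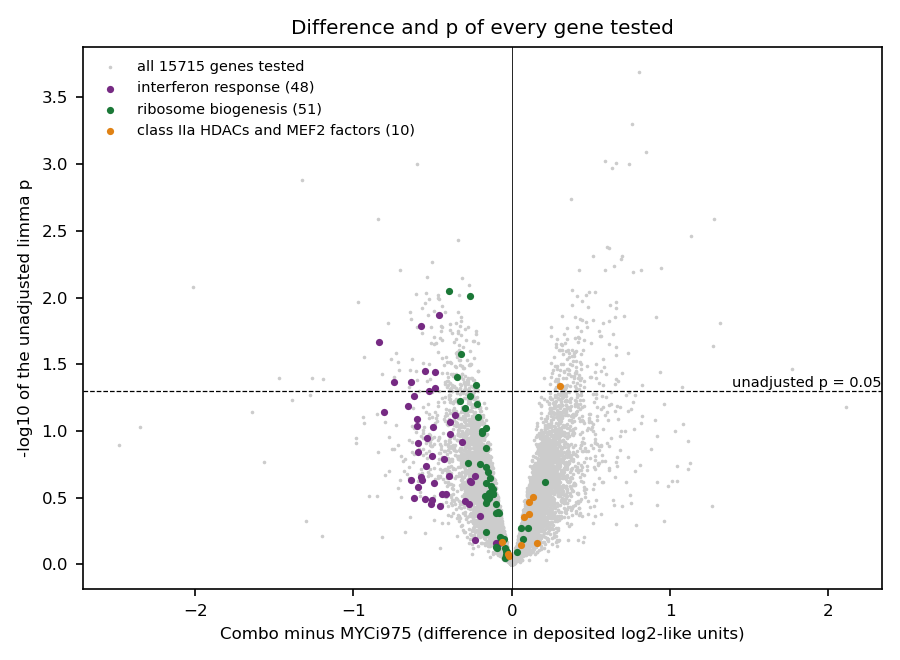
Each point is 1 gene: the horizontal axis is its difference, Combo minus MYCi975, in log2-like units, and the vertical axis is the -log10 of its unadjusted limma p. Grey points are all 15715 genes and coloured points are 3 gene lists; 365 genes lie above the dashed line at an unadjusted p of 0.05, and all 48 interferon response genes lie to the left of 0.

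No transcript of the drugs' targets was called as different. Myc stood at 12.17, 11.07, 11.22 and 11.56 in Combo replicates 1 to 4 and at 11.90, 11.36, 11.64 and 11.26 in MYCi975 replicates 1 to 4. The groups overlapped fully, and the difference was -0.03 (95% interval -0.47 to 0.41). Its partner Max differed by 0.04 (-0.21 to 0.29). Among 11 tested genes of the MYC network, the set of MAX partners and antagonists, 6 were higher, 5 lower and none had an unadjusted p under 0.05. The antagonist Mnt differed by -0.14 (SE 0.10) and Mlx by -0.17 (SE 0.20).

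Of the class IIa enzymes, Hdac9 had the largest difference. It stood at 6.45, 5.86, 6.18 and 6.52 in Combo and at 6.07, 5.97, 5.94 and 5.82 in MYCi975. Combo replicate 2 lay inside the MYCi975 range and the other 3 lay above it. All these values lie near the lowest value of the scale, where differences are compressed. The difference was 0.30 (SE 0.14), with an unadjusted limma p of 0.046, an adjusted p of 1.0 and an exact permutation p of 0.143. TMP195 minus Vehicle, in the separate libraries, was 0.35, and there the adjusted limma p was 0.945. Hdac4 (-0.03, interval -0.29 to 0.24), Hdac5 (0.06, -0.27 to 0.39) and Hdac7 (0.11, -0.16 to 0.38) had intervals that span 0. So did their MEF2 partners, with differences of 0.13 for Mef2a (-0.14 to 0.40), 0.16 for Mef2c (SE 0.40) and -0.06 for Mef2d (SE 0.15). Over the whole list of 10 tested class IIa, MEF2 and corepressor genes, 7 were higher and 3 lower, with a median of 0.09, against a median of 0.00 and 50.2% higher over all genes tested. That median was 0.03 without MYCi975 replicate 3, 0.04 without Combo replicate 4 and 0.05 without MYCi975 replicate 1. Among 11 tested genes named as MEF2 targets, 6 were higher and 5 lower (median 0.02), and Hdac9, itself such a target, was the one with an unadjusted p under 0.05. In TMP195 minus Vehicle 4 of the 11 were above 0 and 7 below (median -0.13, or -0.0021 without TMP195 replicate 4). The immediate early receptor gene Nr4a1 of that list differed by 0.55 (SE 0.39), or 0.28 without Combo replicate 4.

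The 12 named genes with the smallest p among those higher in Combo without overlap were Timm22, Pdlim4, Hoxc8, Ptpn22, Rdh14, Igsf10, Efna5, Med12l, Lpar1, Enpp1, Acss3 and Mylip. All had an adjusted p of 1.0, so they describe the top of a ranking, not called genes. Timm22 encodes the channel subunit of the TIM22 complex, which inserts carrier proteins into the mitochondrial inner membrane. It stood at 8.06, 8.28, 8.28 and 8.40 in Combo and at 6.86, 7.14, 7.63 and 8.0 in MYCi975. The MYCi975 libraries were more spread than the Combo libraries, and the highest MYCi975 value lay just under the lowest Combo value. The difference was 0.85 (SE 0.21, unadjusted p = 0.00081). TMP195 minus Vehicle was -0.07, and the difference between the effects of TMP195 was 0.92 (SE 0.29, unadjusted p = 0.0062, adjusted p = 1.0).

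Hoxc8, a homeobox factor of positional identity, stood at 6.95, 6.96, 7.72 and 7.11 in Combo and at 6.38, 6.31, 6.33 and 6.76 in MYCi975. Combo replicate 3 was the highest and MYCi975 replicate 4 the nearest to the Combo values. Its difference was 0.74 (SE 0.19), whereas TMP195 minus Vehicle was -0.48 (unadjusted p = 0.021). The difference between these effects, 1.22, had an unadjusted p of 0.00025 and an adjusted p of 1.0. Of 27 tested Hox genes, 16 were higher and 11 lower (median 0.04), with Hoxc8 at the top of their range.

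Igsf10 had the largest difference of the 12. It stood between 10.66 and 11.08 in Combo and at 10.02, 9.99, 8.30 and 10.20 in MYCi975, where replicate 3 was far below the others. The difference was 1.28 (SE 0.36), and 0.84 without MYCi975 replicate 3. Enpp1, an enzyme that breaks down extracellular nucleotides including the STING agonist cGAMP, stood at 8.14, 7.74, 7.39 and 7.65 against 6.96, 7.02, 5.93 and 7.22. MYCi975 replicate 3 was again the lowest library, and the difference was 0.95 (SE 0.30), or 0.66 without it. TMP195 minus Vehicle was -0.40 for Enpp1 (-0.14 without TMP195 replicate 2), with an unadjusted p of 0.0058 for the difference between the effects.

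Ptpn22, a phosphatase that dampens antigen receptor signalling, stood at 7.0 to 7.59 in Combo and 6.54 to 6.87 in MYCi975 (difference 0.63, SE 0.16). Lpar1, a receptor for lysophosphatidic acid, stood at 10.84 to 11.36 against 10.11 to 10.83 (0.64, SE 0.20). The other 6 differed by 0.37 for the retinol dehydrogenase Rdh14 to 0.62 for the ephrin ligand Efna5, and included Pdlim4, whose product binds actin, Mylip, the ligase that directs the LDL receptor to breakdown, and Acss3, a mitochondrial acyl-CoA synthetase. Of the 12, 7 were also above 0 in TMP195 minus Vehicle.

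The 12 named genes with the smallest p among those lower in Combo without overlap were Armc2, Pwp2, Mrps18b, Trmt1, Xndc1, Fam78b, Zfyve19, Sgsm3, Gmip, Adgrg1, Cnbd2 and Nt5c. Pwp2, a component of the complex that processes the small ribosomal subunit, stood at 9.69, 9.70, 9.82 and 9.80 in Combo and at 9.85, 10.17, 10.12 and 10.22 in MYCi975. MYCi975 replicate 1 came close to the Combo values and the other 3 lay clear of them. The difference was -0.34 (SE 0.10, unadjusted p = 0.0037). Mrps18b, a protein of the mitochondrial ribosome, stood at 9.01 to 9.20 against 9.33 to 9.48 (-0.31, SE 0.10), and the tRNA methyltransferase gene Trmt1 at 9.99 to 10.41 against 10.46 to 10.68 (-0.33, SE 0.11).

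The largest of these 12 differences was that of Adgrg1, an adhesion G-protein-coupled receptor, at 5.75, 5.52, 5.91 and 5.30 in Combo and 5.95, 6.67, 6.76 and 6.22 in MYCi975 (-0.78, SE 0.29). These values lie near the lowest value of the scale, where differences are compressed. Armc2, a gene of ciliary assembly, differed by -0.60 (SE 0.15), Zfyve19 by -0.55 (SE 0.19) and the nucleotidase gene Nt5c by -0.32 (SE 0.12). All 12 had an adjusted p of 1.0. In TMP195 minus Vehicle 10 of them were also below 0, and none of those 12 differences had an unadjusted p under 0.05.

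**Figure D2:**
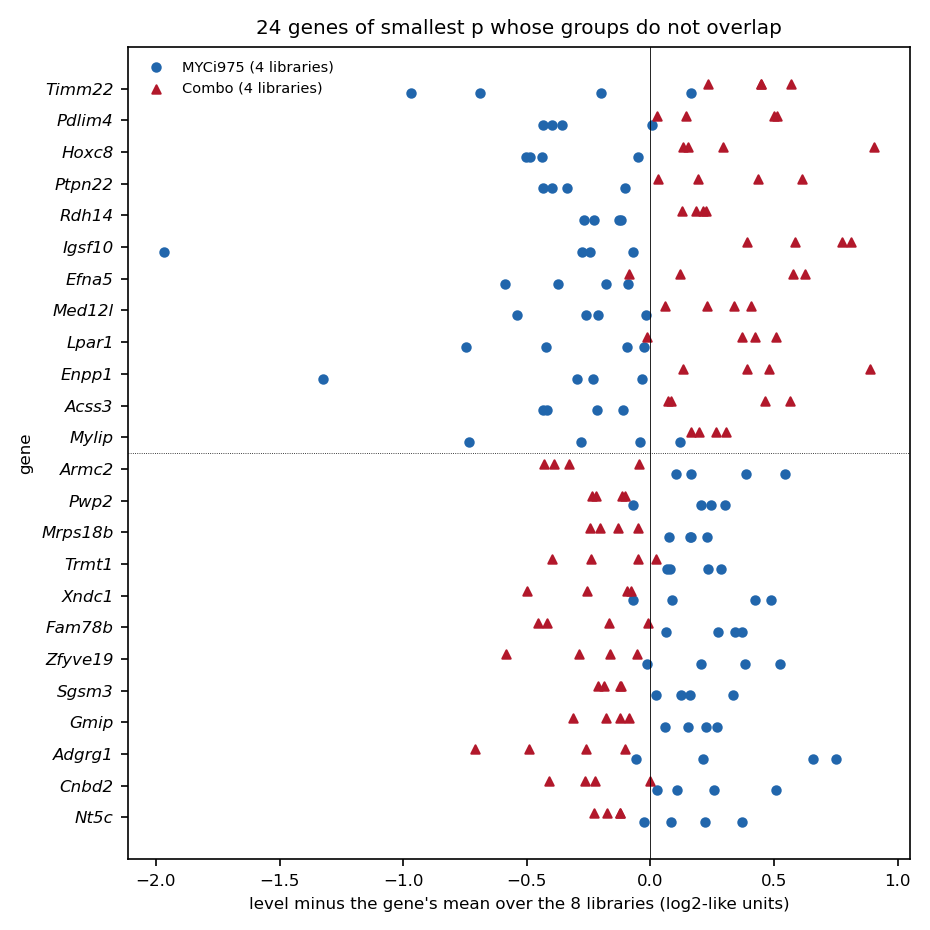
Each row is 1 of the 24 genes, the horizontal axis is a library's level minus that gene's mean over the 8 libraries in log2-like units, red triangles are the 4 Combo libraries and blue circles the 4 MYCi975 libraries. Upper rows are higher in Combo and lower rows lower; the groups do not overlap in any row because that was a condition of the choice, and for Igsf10 and Enpp1 a single MYCi975 library lies far to the left.

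The widest shared shift of any pathway list was in interferon response genes, the antiviral genes switched on when interferon binds its receptors. All 48 tested genes of the list were lower in Combo, with a median of -0.50 and a range from -0.84 to -0.09, against 49.8% lower and a median of 0.00 over all genes tested. None was called. At an unadjusted limma p under 0.05, 8 of the 48 were lower and none higher, against 1.18% lower over all genes, and 2 of 48 did not overlap between the groups, against 0.815%.

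Type I interferon acts through the interferon-stimulated response element, here searched as GAAA, any 2 bases and GAAA on either strand in the 250 bases before the start of each gene. It was in 18 of the 33 list genes that the RefSeq promoter table (GRCm38.p6) holds (54.5%) and in 3.46% of all 27025 genes of that table. Among the MHC class I genes described below it was in 3 of 19 (15.8%). The E-box CACGTG bound by MYC was in none of the 33 and in 6.86% of all genes. The stretches around the element nearest the start are shown for the 6 genes of smallest p among those that hold it. Genes of the list in which no element was found, or that the promoter table lacks, were passed over. Oas1b, which had the smallest p of the list, is therefore not shown. Capitals mark the element as read on the gene's own strand, where TTTC, any 2 bases and TTTC is its reverse complement and overlapping elements run together.
Stat2 (chr10:128270252-128270309, + strand): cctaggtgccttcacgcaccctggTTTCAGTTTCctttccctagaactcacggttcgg
Rsad2 (chr12:26456539-26456596, - strand): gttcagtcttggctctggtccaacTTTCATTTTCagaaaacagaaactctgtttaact
Ifit3b (chr19:34607779-34607836, + strand): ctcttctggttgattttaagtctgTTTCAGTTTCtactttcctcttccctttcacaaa
Bst2 (chr8:71537563-71537620, - strand): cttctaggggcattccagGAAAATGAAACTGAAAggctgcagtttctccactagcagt
Ifit1 (chr19:34640780-34640837, + strand): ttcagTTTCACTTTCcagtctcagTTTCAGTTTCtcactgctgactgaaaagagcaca
Ifit3 (chr19:34583383-34583440, + strand): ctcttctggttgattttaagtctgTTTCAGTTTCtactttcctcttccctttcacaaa
Ifit3 and Ifit3b, which are neighbouring copies, share the whole printed stretch, and reads of such copies may have been divided between them. A match describes the letters only. In Combo minus MYCi975 the antiviral genes Rsad2, Bst2 and Ifit1 differed by -0.64 (SE 0.29), -0.52 (SE 0.25) and -0.80 (SE 0.42). Ifit3 differed by -0.60 (SE 0.34) and Ifit3b by -0.48 (SE 0.23). Without MYCi975 replicate 3, described below, the differences were -0.28 for Rsad2, -0.35 for Ifit1, -0.32 for Ifit3 and -0.23 for Ifit3b.

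The sensor gene Oas2, which makes the messenger that activates RNase L, stood at 7.10, 7.53, 7.39 and 7.14 in Combo and at 7.51, 7.6, 9.61 and 7.79 in MYCi975. MYCi975 replicate 3 was far above every other library, and MYCi975 replicate 1 fell inside the Combo range. The difference was -0.84 (SE 0.33, unadjusted p = 0.022), and -0.35 without MYCi975 replicate 3. The ubiquitin ligase gene Herc6 stood at 9.83, 10.01, 10.06 and 9.72 against 10.12, 10.33, 11.11 and 10.36, with no overlap, and differed by -0.57 (SE 0.22), or -0.37 without that library. Stat2, a subunit of the factor that binds the element, differed by -0.55 (SE 0.24), or -0.26 without it. Oas1b differed by -0.46 (SE 0.17, unadjusted p = 0.013), the smallest p of the list, or by -0.29 without that library.

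The mean of the list in each library was 8.83, 9.01, 8.93 and 8.40 in Combo and 8.90, 8.81, 9.91 and 9.42 in MYCi975. MYCi975 replicates 1 and 2 lay within the Combo range and replicates 3 and 4 above it. Of the 48 genes, 35 had their highest value of the 8 libraries in MYCi975 replicate 3 (72.9%, against 15.4% of all genes), and 34 had their lowest in Combo replicate 4. Without MYCi975 replicate 3 the median was -0.27, with 45 genes lower and 3 higher; without Combo replicate 4 it was -0.34, with the same counts. MYCi975 replicate 3 was also the library with the most neutrophil and leukocyte RNA. With the leukocyte list mean as a covariate in the fit of all 16 libraries the median of the 48 genes was -0.37 and all were below 0. That covariate leaves out the neutrophil list, and the share of leukocyte RNA in the shift was not tested. The list means of the vehicle libraries, 8.74, 9.36, 8.50 and 9.57, spread about as widely, and the group means were 8.79 ± 0.27 (SD, n = 4) in Combo and 9.26 ± 0.51 (SD, n = 4) in MYCi975. In TMP195 minus Vehicle 41 of the 48 genes were below 0, with a median of -0.21, and 29 were below 0 without TMP195 replicate 4 (median -0.05) or without Vehicle replicate 4 (median -0.05).

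**Figure D3:**
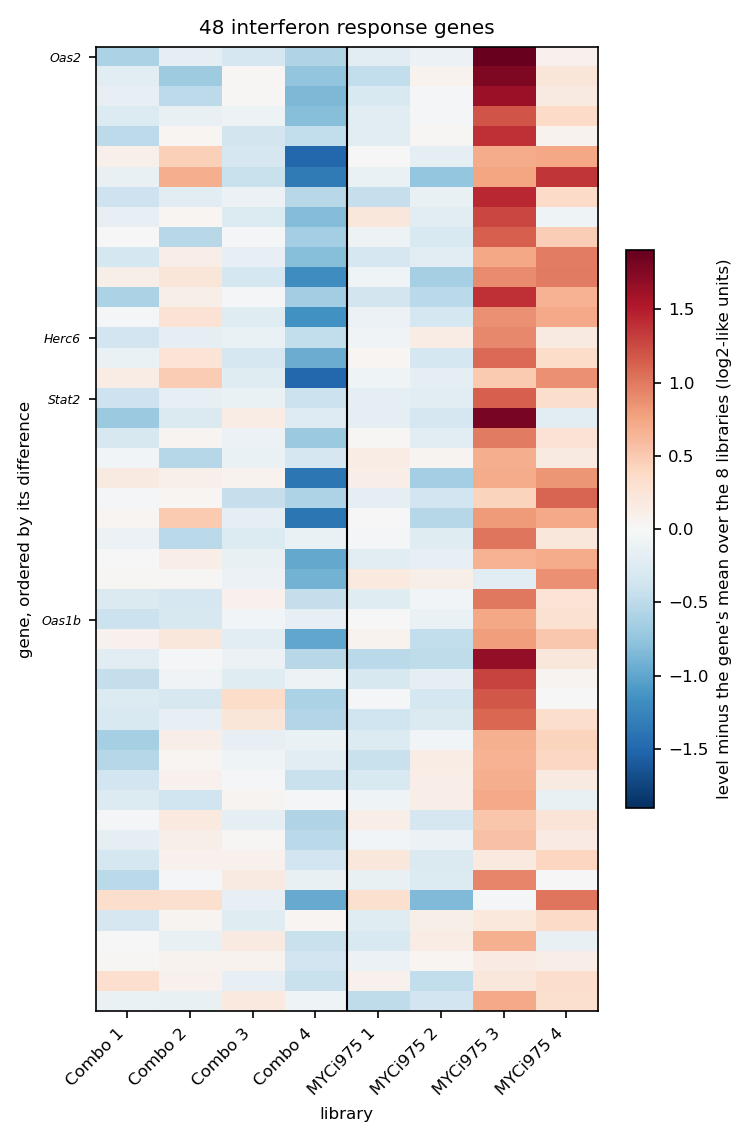
Rows are the 48 interferon response genes ordered by their difference, with names for those chosen by smallest p, and columns are the 8 libraries; the colour is the level minus that gene's mean over the 8 libraries in log2-like units, red above and blue below. The columns of MYCi975 replicates 3 and 4 are mostly red and that of Combo replicate 4 mostly blue, whereas MYCi975 replicates 1 and 2 look like Combo replicates 1 to 3.

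Genes of MHC class I presentation, which load peptides onto class I molecules for T cells, were likewise all lower: 22 of 22, with a median of -0.37. At an unadjusted p under 0.05 were 2 of them, both lower (1.18% of all genes), and 1 did not overlap (0.815% of all genes were lower without overlap). The transactivator Nlrc5 stood at 10.13, 10.75, 9.69 and 9.58 in Combo and at 10.73, 10.29, 11.44 and 10.95 in MYCi975. Combo replicate 2 and MYCi975 replicates 1 and 2 overlapped, and the difference was -0.82 (SE 0.36, unadjusted p = 0.037), or -0.62 without MYCi975 replicate 3. The peptide editor gene Tapbpl stood at 8.55, 8.75, 8.71 and 8.46 against 8.79, 8.96, 9.24 and 9.16, with no overlap (-0.42, SE 0.19). The class I heavy chain gene H2-K1 differed by -0.55 (SE 0.31) and H2-T23 by -0.53 (SE 0.27), and reads of the class I genes may be divided between near-identical copies. Without MYCi975 replicate 3 all 22 were lower (median -0.28), and without Combo replicate 4 there were 19 lower and 3 higher (median -0.25). For TMP195 minus Vehicle 17 of 22 were below 0 (median -0.16), but without TMP195 replicate 4 7 of 22 were (median 0.10) and without Vehicle replicate 4 there were 12 (median -0.02).

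Other inflammatory genes were less uniform. Of 18 NF-kB target genes 13 were lower (median -0.19), with a median of -0.08 without Combo replicate 4 and -0.09 without MYCi975 replicate 3. Of 24 tested chemokine and cytokine genes 15 were lower (median -0.13), and without Combo replicate 4 there were 12 higher and 12 lower (median 0.01). Il1b, a cytokine made mainly by myeloid cells, stood at 5.89, 7.05, 5.88 and 6.49 in Combo and at 6.44, 6.17, 10.25 and 7.99 in MYCi975. MYCi975 replicate 3 alone exceeded 8, and the difference was -1.39 (SE 0.68, unadjusted p = 0.058), or -0.54 without that library. Cxcl16 differed by -0.56 (SE 0.24, unadjusted p = 0.031). The checkpoint ligand genes were even, 6 higher and 6 lower, and Cd274, which encodes PD-L1, differed by -0.40 (SE 0.33), or -0.18 without Combo replicate 4.

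Markers of leukocytes did not separate the groups. Of 7 tested genes common to leukocytes, 2 were higher and 5 lower (median -0.21), and without MYCi975 replicate 3 there were 4 higher and 3 lower (median 0.11). Ptprc stood at 6.64, 7.06, 5.81 and 7.10 in Combo and at 6.55, 5.87, 8.04 and 7.16 in MYCi975, with overlap (-0.25, SE 0.43). Of 7 tested macrophage and monocyte genes 5 were higher (median 0.15), with medians from 0.04 without MYCi975 replicate 2 to 0.25 without Combo replicate 1, and 0.30 with the leukocyte list mean as a covariate. All 6 tested neutrophil genes were lower (median -0.59), including S100a9 (-0.98, SE 0.59), which stood at 10.31 in MYCi975 replicate 3 and at 6.41 to 7.84 in the other 7. Without that library S100a9 differed by -0.17, and the neutrophil list had 5 lower and 1 higher with a median of -0.17. Few lymphocyte genes reached the filter: 2 of 7 T and NK cell genes in the table and 0 of 2 B cell genes were tested.

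Without MYCi975 the same lists had higher means in TMP195 than in vehicle, by estimates in separate libraries. The leukocyte list mean was 7.66, 6.76, 6.02 and 6.62 in TMP195 replicates 1 to 4 and 5.82, 5.89, 5.97 and 6.34 in vehicle, so TMP195 replicate 1 was the highest and replicate 3 lay within the vehicle range. All 7 leukocyte genes and all 7 macrophage genes were above 0 in TMP195 minus Vehicle, with medians of 0.76 and 0.63. Without TMP195 replicate 1 the medians were 0.42 and 0.56, and 6 of the 7 macrophage genes were above 0. For Ptprc TMP195 minus Vehicle was 1.13, and the difference between the effects was -1.39 (unadjusted p = 0.034). With TMP195 replicate 1 left out they were 0.84 and -1.09, and the difference no longer had an unadjusted p under 0.05. The same held for that p without TMP195 replicate 2, Vehicle replicate 1 or Vehicle replicate 3. For the class II gene H2-Eb1 the values were 0.93 without MYCi975 and 0.11 with it (difference -0.82, unadjusted p = 0.015). In Combo and MYCi975 H2-Eb1 stood at 5.25 to 5.90, near the lowest value of the scale, where differences are compressed. Leaving out TMP195 replicate 1 gave 0.66 without MYCi975 and a difference of -0.55. No gene had an adjusted p under 0.05 for the difference between the effects, where 471 genes (3%; 1.4% higher and 1.6% lower) had an unadjusted p under 0.05, or for TMP195 minus Vehicle, where 767 (4.88%; 2.44% higher and 2.44% lower) did.

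Genes of ribosome biogenesis, the nucleolar factors that MYC is known to drive, were mostly lower in Combo by a small amount. Of 51 tested genes 46 were lower and 5 higher, with a median of -0.14. At an unadjusted p under 0.05 were 5, all lower (against 1.18% of all genes), and 4 did not overlap, all lower (against 0.815%). The list mean was 10.72, 10.52, 10.53 and 10.58 in Combo and 10.68, 10.79, 10.73 and 10.67 in MYCi975. Combo replicate 1 fell within the MYCi975 range and the other 3 Combo libraries lay below it. The median ranged from -0.18 to -0.10 when each of the 8 libraries was left out in turn, and without MYCi975 replicate 3 it was -0.12 with 43 genes lower.

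Ppan, a factor of large subunit assembly, stood at 10.35, 10.17, 10.13 and 10.38 in Combo and at 10.34, 10.67, 10.80 and 10.81 in MYCi975. MYCi975 replicate 1 was inside the Combo range, and the difference was -0.40 (SE 0.13, unadjusted p = 0.0089). The nucleolar helicase gene Ddx21 stood at 12.62, 12.56, 12.35 and 12.47 against 12.61, 12.86, 12.82 and 12.77 (-0.26, SE 0.09), with MYCi975 replicate 1 again inside. Rrp1b stood at 10.47, 10.31, 10.23 and 10.41 against 10.51, 10.71, 10.90 and 10.57 (-0.32, SE 0.13), with no overlap. Wdr3 differed by -0.35 (SE 0.16), or -0.20 without MYCi975 replicate 2. In TMP195 minus Vehicle the same list had 46 genes below 0 and 5 above, with a median of -0.09.

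An E-box, CACGTG, was in the 250 bases before the start of 3 of the 45 ribosome biogenesis genes in the promoter table (6.67%), against 6.86% of all genes, and in 10 of 51 MYC target genes (19.6%). The E-box nearest the start is shown for each of the 3 genes; the window of Rrn3 holds 2. Capitals mark the E-box, which reads the same on both strands.
Imp4 (chr1:34439684-34439737, + strand): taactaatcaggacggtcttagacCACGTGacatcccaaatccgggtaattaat
Rrn3 (chr16:13780627-13780680, + strand): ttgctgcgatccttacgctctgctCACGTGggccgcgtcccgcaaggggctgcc
Utp18 (chr11:93885767-93885810, - strand): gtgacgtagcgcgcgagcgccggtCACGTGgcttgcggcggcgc
The window ends at the gene start, so sites inside the gene, where many MYC targets carry theirs, were not searched.

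Of 77 tested cytosolic ribosomal protein genes, 62 were lower and 15 higher (median -0.12), and 5 had an unadjusted p under 0.05, all lower (against 1.18% of all genes). Rpl35 stood at 12.79, 13.04, 13.15 and 12.90 in Combo and at 13.49, 13.15, 14.41 and 14.19 in MYCi975 (-0.84, SE 0.24, unadjusted p = 0.0026). MYCi975 replicate 2 reached the top of the Combo range, and without MYCi975 replicate 3 the difference was -0.64. These genes have many processed copies, and single values are uncertain. The broader MYC target list had 45 of 59 genes lower (median -0.08), of which Ppan alone had an unadjusted p under 0.05, and without MYCi975 replicate 2 it had 33 lower and 26 higher (median -0.03). In TMP195 minus Vehicle 51 of those 59 were below 0 (median -0.14).

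The study's title concerns mitochondrial dysfunction, so mitochondrial lists were read in turn. Transcripts of the mitochondrial genome were lower for 12 of 15 genes (median -0.28). The subunit gene mt-Nd4l stood at 10.21, 10.18, 9.96 and 9.94 in Combo and at 10.34, 10.72, 11.35 and 10.28 in MYCi975, with no overlap (-0.60, SE 0.27, unadjusted p = 0.042), or -0.37 without MYCi975 replicate 3. The mt-Atp6 difference was -0.76 (SE 0.32). MYCi975 replicate 3 held the highest value of 13 of the 15, and without it 10 were lower with a median of -0.17. Without MYCi975 replicate 1 the median was -0.48.

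**Figure D4:**
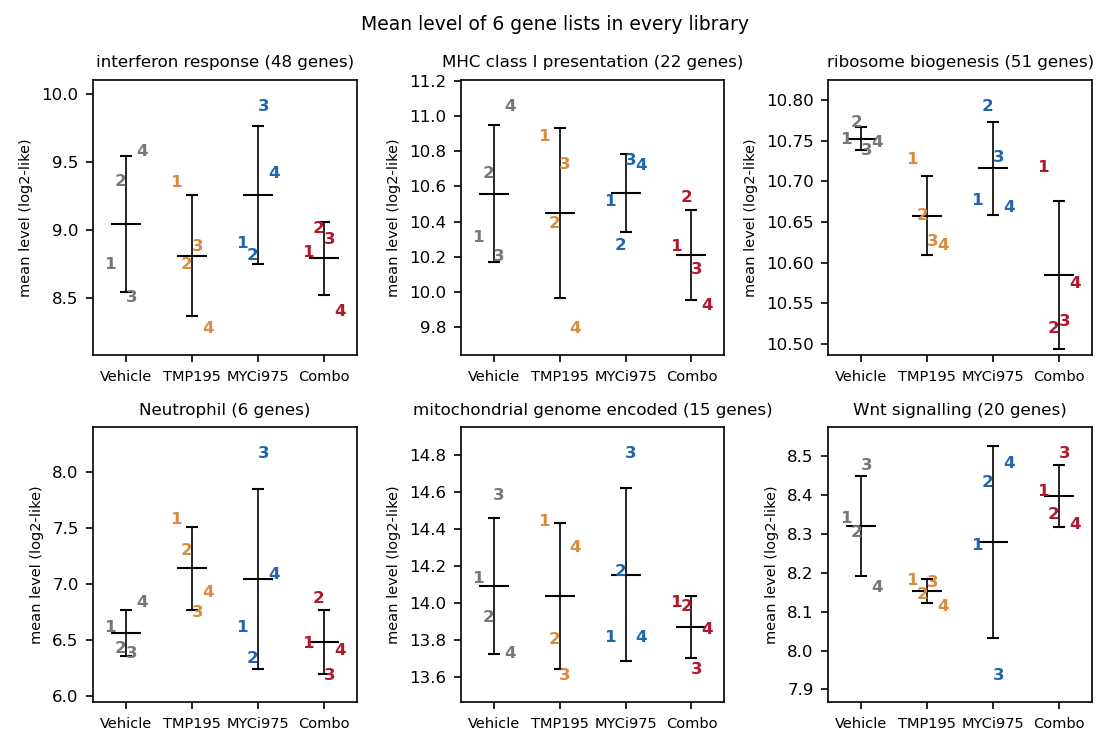
Each panel gives the mean level of a gene list in every library, in log2-like units, with the digit of the replicate as the point, the group mean as a dash and 1 SD as the bar; the vertical axes do not start at 0. MYCi975 replicate 3 is the highest MYCi975 library for interferon, neutrophil and mitochondrial genome lists and the lowest for Wnt signalling, whereas in ribosome biogenesis 3 of the 4 Combo libraries lie below all MYCi975 libraries.

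Nuclear lists for the same organelle had medians between -0.08 and 0.03, and most of these changed sign when 1 library was left out. Complex I had 13 higher and 23 lower of 36 (median -0.04), complexes II and III 8 higher and 6 lower (median 0.03), complex IV 10 higher and 9 lower (median 0.03) and ATP synthase 4 higher and 11 lower (median -0.05). Ndufb8, a membrane subunit of complex I, differed by -0.40 (SE 0.18, unadjusted p = 0.042), or -0.26 without MYCi975 replicate 4. For complex III the hinge protein gene Uqcrh differed by 0.34 (SE 0.17), or 0.20 without MYCi975 replicate 3. The mitochondrial ribosome, with 31 of 79 higher and 48 lower, had a median of -0.04, whereas 73 of the 79 were below 0 in TMP195 minus Vehicle (median -0.13; -0.08 with 63 below 0 without Vehicle replicate 4). The range of differences within the list, -0.39 to 0.21, held Mrps18b, described above, and Dap3 (0.20, SE 0.11; 0.12 without Combo replicate 4).

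Of 30 import and chaperone genes 19 were lower (median -0.08), and Timm22 was the one that was higher without overlap (against 0.891% of all genes). Its relative Timm17b differed by 0.31 (SE 0.20) and the intermembrane import oxidase gene Chchd4 by -0.27 (SE 0.12). Chchd4 differed by -0.16 without MYCi975 replicate 2, and Timm17b by 0.47 without MYCi975 replicate 4. In the TCA cycle 11 of 19 were higher (median 0.02), while Idh3g, a regulatory subunit of isocitrate dehydrogenase, stood at 9.90 to 10.15 in Combo and 10.24 to 10.39 in MYCi975 (-0.29, SE 0.11, unadjusted p = 0.021). In fatty acid oxidation 10 of 19 were higher and 2 genes, Acadm (-0.24, SE 0.15) and Eci1 (-0.31, SE 0.21), were lower without overlap (against 0.815% of all genes). Acadm differed by -0.14 without MYCi975 replicate 3. In mitochondrial dynamics and biogenesis 9 of 23 were higher, with differences from -0.18 to 0.11.

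Among lists of growth and metabolism, mitosis had 19 higher and 21 lower of 40 (median -0.0049), and DNA replication 14 higher and 35 lower of 49 (median -0.06). Without MYCi975 replicate 2 the latter had 26 higher and 23 lower (median 0.0063). Pold1, the catalytic subunit of polymerase delta, differed by -0.24 (SE 0.11). In TMP195 minus Vehicle all 40 mitosis genes and 48 of the 49 replication genes were below 0, with medians of -0.25 and -0.19, or -0.16 and -0.12 without Vehicle replicate 4. Without Vehicle replicate 2 the mitosis median was -0.15. The replication-dependent histone genes, whose copies are near-identical, had 27 of 35 lower (median -0.15). MYCi975 replicate 4 held the highest value of 20 of the 35, and the median was -0.09 without it (23 lower, 12 higher), -0.23 without MYCi975 replicate 1 and -0.24 without Combo replicate 4. In TMP195 minus Vehicle 34 of 35 were below 0 (median -0.31, or -0.20 without TMP195 replicate 1). Hist1h2bk differed by -0.64 (SE 0.28) here and by -0.63 there. Cholesterol synthesis had 17 of 24 higher with a median of 0.04, against 2 of 24 and -0.25 without MYCi975. Without MYCi975 replicate 4 its median was -0.01 and without Combo replicate 3 it was -0.02, and TMP195 minus Vehicle ran from -0.38 (without Vehicle replicate 3) to -0.15 (without Vehicle replicate 4). Glycolysis had 17 of 23 higher (median 0.05), NRF2 and antioxidant genes 23 of 32 (median 0.07), and hypoxia response genes 8 of 24 (median -0.03), against 23 of 24 above 0 (median 0.26, or 0.15 without TMP195 replicate 2) in TMP195 minus Vehicle. Without MYCi975 replicate 3 the medians were -0.02 for glycolysis, 0.02 for NRF2 genes and -0.09 for hypoxia genes. None of these genes was called in either comparison.

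Matrix and developmental signalling lists tended the other way. Wnt signalling had 18 of 20 tested genes higher (median 0.13), among them the receptor gene Fzd8 (0.32, SE 0.20) and the effector gene Lef1 (0.27, SE 0.21). Fzd8 differed by 0.15 without MYCi975 replicate 3, and Lef1 by 0.11 without Combo replicate 3. None had an unadjusted p under 0.05. MYCi975 replicate 3 held the lowest value of 14 of the 20, and without it 11 were higher and 9 lower, with a median of 0.02. Without Combo replicate 3 the median was 0.07. Without MYCi975, 17 of the 20 were below 0 in TMP195 minus Vehicle (median -0.19, or -0.11 without Vehicle replicate 1).

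The Notch list had 9 of 10 higher (median 0.11), and 6 of 10 without MYCi975 replicate 3 (median 0.05), with Notch3 at 0.55 (SE 0.25, unadjusted p = 0.044) and Notch1, the exception, at -0.48 (SE 0.25), or -0.32 without that library. Matrix protease and inhibitor genes had 19 of 23 higher (median 0.07). MYCi975 replicate 3 held the lowest value of 14 of the 23, and without it 12 were higher and 11 lower (median 0.02). Without Combo replicate 1 there were 11 higher and 12 lower (median -0.02). The stromelysin gene Mmp3 stood at 11.50 in MYCi975 replicate 3 and at 13.60 to 15.66 in the other 7, and differed by 0.78 with that library and 0.05 without it. Of 7 tested fibroblast genes 6 were higher (median 0.20), and without MYCi975 replicate 3 there were 5 of 7 with a median of 0.07. The median was 0.11 without Combo replicate 3. Lum, a proteoglycan of collagen fibrils, differed by 0.56 (SE 0.35) with that library and by 0.07 without it. Of 10 imprinted growth genes 9 were higher in both comparisons, with medians of 0.11 and 0.08. Without MYCi975 replicate 1 the first median was 0.28 with 7 higher, and without Vehicle replicate 4 the second was -0.0077 with 5 of 10 above 0.

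The effects of TMP195 with and without MYCi975 were compared over all genes, using libraries that do not overlap. Of the 180 genes higher at an unadjusted p under 0.05, 109 (60.6%) were above 0 in TMP195 minus Vehicle, against 46.3% of all genes, with a median of 0.05. Of the 185 lower, 126 (68.1%) were below 0, against 53.7% of all genes, with a median of -0.07. At an unadjusted p under 0.05 in both comparisons were 8 genes higher in both, 11 lower in both and 4 opposite. Across all 15715 genes, Pearson's r between the effects was 0.0058 and Spearman's rho 0.04, as a description over genes that share libraries and are not independent. The median SE of a difference between the effects was 0.22.

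**Figure D5:**
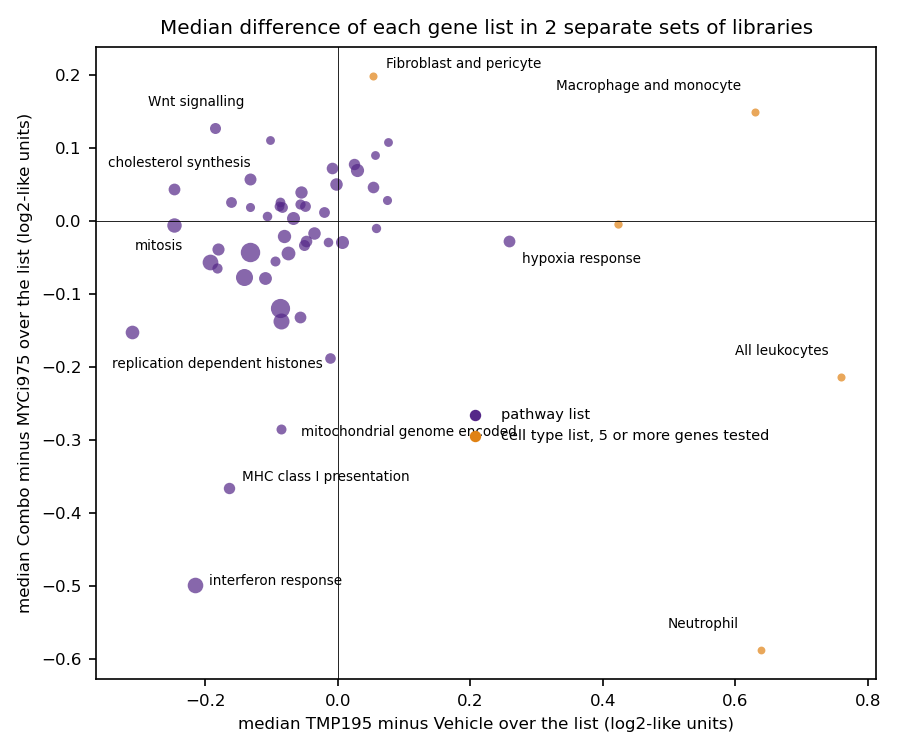
Each point is a gene list: the horizontal axis is its median TMP195 minus Vehicle and the vertical axis its median Combo minus MYCi975, both in log2-like units, with point size growing with the number of genes tested. Interferon and MHC class I lists are below 0 on both axes, whereas leukocyte and macrophage lists lie at 0.76 and 0.63 on the horizontal axis and at -0.21 and 0.15 on the vertical axis.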

How the data were processed

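RNA of enriched LLC1 tumour cells was sequenced in 16 libraries, 4 per group, with a stranded total RNA kit per the labels' protocols. The authors deposited 1 table of variance-stabilised values on a log2 scale. The submitters' processing notes name Salmon (no version) and the human build hg38, although samples and identifiers are mouse. How the values were stabilised, and with which annotation, is not given in the sources used here. Depth per library is unknown, and no interval that needs counts was made. All per-sample columns were used. Symbols matched 23150 of 24334 identifiers.

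Genes exceeding the table's minimum by 1 or more in 4 or more libraries were kept. limma 3.58.1 in R 4.3.3 fitted 1 mean per group over all 16 libraries, moderated by empirical Bayes with a trend on intensity. Tests were two-sided with Benjamini-Hochberg adjustment within each of 3 contrasts: Combo minus MYCi975, TMP195 minus Vehicle and the difference between them. The fit was tested on simulated data. Genes were named by rule: any called, the 12 of smallest p in each direction whose groups do not overlap (predicted genes left out), Myc, Max, Hdac4, Hdac5, Hdac7, Hdac9, Mef2a, Mef2c, Mef2d, Ptprc, and up to 4 members of smallest p per list. Vim was added as a marker, and genes shown with a sequence were the members of smallest p that hold the motif. Genes were grouped into pathway and cell type lists. The comparison, the lists and the rule were chosen with earlier results of these data known, and support nothing independently. Promoters came from RefSeq. Alternatives were other filters, moderation, scalings, library weights, a replicate block, a leukocyte covariate and left-out libraries. Leaving out single TMP195 or Vehicle libraries in TMP195 minus Vehicle was chosen after seeing the data.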

Additional observations from a re-analysis of the deposited data

Results flagged for a closer look

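Of 252 groups of 4 values looked at, 11 held a library far from the other 3, where chance gives about 1 in 20. MYCi975 replicate 3 was that library for Igsf10 (8.30, low), Oas2 (9.61, high), Lum (11.43, low) and Mmp3 (11.50, low). MYCi975 replicate 4 was it for Hoxc8 (6.76, high) and Nop2 (10.98, low), MYCi975 replicate 2 for Lef1 (6.43, high) and Pdgfra (12.44, low), and MYCi975 replicate 1 for Dap3 (9.51, low). Combo replicate 2 was it for Mef2a (11.998, high) and for the mean of the cytosolic ribosomal protein list (12.38, low).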

How the results depend on the processing

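The count of called genes was 0 under each alternative run except without MYCi975 replicate 2, where the predicted gene Gm15801 was called (difference -1.77, adjusted p = 0.0431), so over the left-out libraries it ran from 0 to 1. Genes at an unadjusted p under 0.05 numbered 754 with no filter, 237 with the stricter filter (exceeding the minimum by 2 in 8 libraries), 565 with sample quality weights and 243 (without MYCi975 replicate 3) to 606 (without MYCi975 replicate 1) with 1 library left out, against 365. Genes without overlap numbered 462 with no filter and 441 to 844 with 1 library left out, where fewer samples separate more easily, against 268. With replicate number as a block, 554 genes passed the unadjusted p and 0 were called. A fit of the Combo and MYCi975 libraries alone gave 414 and 0. Deviations of same-numbered Combo and MYCi975 libraries correlated at 0.43, -0.11, -0.07 and 0.23, and those of other pairs at -0.32 to 0.19. On the axis of largest variation (first principal component) of all 16 libraries, 21.2% of the variance, libraries numbered 1 lay at -19.5 to -13.7. Those numbered 4 lay at 5.32 to 33.2, and those numbered 2 and 3 at -9.41 to 5.90. The main fit leaves this shared structure out. What the numbers stand for is not stated, so pairing of the samples stays undecided.

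Of 2216 values for 112 named genes, 2187 kept their direction and 29, in 10 genes, did not. The 12 genes per direction chosen for groups that do not overlap could not turn when 1 library was left out. Others were chosen by smallest p in the same data, so the count overstates stability. Mef2c was -0.0599 with quality weights and -0.32 without the libraries numbered 4, where Hdac4 was 0.00539. Ptprc was 0.0332 with the leukocyte covariate. Without TMP195 replicate 1 and MYCi975 replicate 3 the values were 0.126 for Ptprc, 0.012 for Mef2d, -0.106 for Mef2c, -0.011 for Max, 0.00407 for Myc and 0.0397 for Cd14. With 1 library left out the range was -0.252 to 0.116 for Myc, -0.0308 to 0.0997 for Max, -0.0953 to 0.0192 for Hdac4, -0.0202 to 0.142 for Hdac5, -0.00446 to 0.209 for Hdac7, -0.106 to 0.523 for Mef2c, -0.106 to 0.012 for Mef2d, -0.00109 to 0.216 for H2-Eb1, -0.598 to 0.126 for Ptprc and -0.294 to 0.0397 for Cd14. The cause of these changes was not tested. Of 1056 list medians 1052 moved by less than 1 SD, the SD between libraries of the list mean pooled over Combo and MYCi975. That is a wide margin. The interferon SDs were 0.27 in Combo and 0.51 in MYCi975, so a median of -0.27 in place of -0.50 counted as unmoved. As given above, 27 of 53 list medians changed sign with 1 library left out. The median of imprinted growth genes was 0.28 without MYCi975 replicate 1. Unknown depth limits statements on weakly expressed genes.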

Other observations

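The Nr4a genes, immediate early nuclear receptors that MEF2 is known to regulate, were the 3 highest differences among the 25 tested immediate early genes, of which 14 were higher and 11 lower (median 0.06). In TMP195 minus Vehicle 9 of the 25 were above 0 and 16 below (median -0.13, or -0.07 without Vehicle replicate 4). Nr4a3 stood at 7.22, 7.83, 6.87 and 9.49 in Combo and at 6.63, 6.18, 6.68 and 7.63 in MYCi975, with an unadjusted limma p of 0.047 and an adjusted p of 1.0 (difference 1.07, SE 0.50). Combo replicate 4 was the highest library of Nr4a3, Nr4a1 (9.21) and Nr4a2 (10.60), and without it Nr4a3 differed by 0.53, Nr4a1 by 0.28 and Nr4a2 by 0.15. Among 13 tested genes of the BCL2 family 9 were lower (median -0.03), with the death effector gene Bbc3 at -0.29 (SE 0.15) and the survival gene Mcl1 at 0.13 (SE 0.10). Of 28 other HDAC and acetyl-reader genes 17 were lower, and Brd9 differed by -0.16 here (-0.10 without MYCi975 replicate 4) and by 0.22 in TMP195 minus Vehicle (unadjusted p = 0.014 for the difference, adjusted p = 1.0).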
